A study of Mus musculus with 7 samples.

Results

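The genes described here are 38 mouse genes of glucose uptake, glycolysis, lactate handling and the response to low oxygen, taken by symbol from a count table of whole retina. Of the 38 symbols, 37 had a row among the 25655 genes of the table, and 35 of these had enough counts to be tested among 14750 genes. Aldoa, the gene of a glycolytic aldolase, had no row under its plain symbol. The retinas were from wild-type C57BL/6 mice, and all had been injured by optic nerve crush, which damages the axons of retinal ganglion cells, and collected 2 days later. All had also received AAV2, a virus-derived vector known to enter ganglion cells, which carried either Tppp3, the gene of a tubulin polymerization-promoting protein (Tppp3 AAV2, 3 libraries), or a CMV control construct (Control AAV2, 3 libraries). Uninjured retina was not analysed here, so the comparison concerns the vector after injury and not the injury. No source used here gives the age of the mice, the cells that took up the vector or whether retinas were pooled.

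Glycolysis splits glucose into pyruvate in the cytosol, and lactate dehydrogenase turns pyruvate into lactate. Photoreceptors are known for making much lactate even when oxygen is present, and glucose reaches them through the transporter encoded by Slc2a1. When oxygen falls, the hypoxia-inducible factor whose alpha subunit is encoded by Hif1a is no longer marked for destruction by the prolyl hydroxylases of the Egln genes, and it raises the transcription of many glycolytic genes and of other targets such as Bnip3, P4ha1 and Car9. The factor is controlled largely at the protein level, which RNA counts do not show.

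Tppp3 itself, the check of the labels, was at 53.7, 36.5 and 41.8 CPM (counts scaled to one common library size after TMM scaling) in the Tppp3 AAV2 libraries, against 18.7, 22.2 and 28.0 CPM in the Control AAV2 libraries. The log2 fold change of Tppp3 was 0.94 ± 0.20 (SE; edgeR unadjusted p = 0.00313, adjusted p = 0.639). The delivered gene itself thus did not pass the test used for the members. Reads of the native gene and of the vector were not separated. The Tppp3 AAV2 libraries held 19961359 to 21843892 counts and the Control AAV2 libraries 10961443 to 16218074, so every Tppp3 AAV2 library was deeper. Defining markers of the retina were abundant, with rod markers summing to 43346 to 51692 CPM in the Tppp3 AAV2 libraries and 49537 to 55952 CPM in the Control AAV2 libraries. Pigment epithelium, a tissue that lies against the retina, was present in uneven amounts. Its 8 markers summed to 44.7, 12.5 and 43.2 CPM in Tppp3 AAV2 replicates 1, 2 and 3 and to 49.1, 4.61 and 5.06 CPM in Control AAV2 replicates 1, 2 and 3, and of these markers Slc45a2 alone was at 0, in Control AAV2 replicate 3. The levels are of whole tissue, in which fewer cells of a type and less RNA per cell cannot be told apart.

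No gene of the module passed the test. Of the 35 tested members, 0 had an adjusted p under 0.05 in edgeR's quasi-likelihood test over all genes, where 2 of 14750 genes passed, or 0.0136%. At an unadjusted p under 0.05, 3 members were higher with Tppp3 AAV2, against a background of 3.67% of genes, and 1 was lower, against a background of 3.55%. The 3 higher members were Slc2a1, Slc2a3 and P4ha1, and the lower member was Eno1b. The same 4 members were the only tested ones whose groups did not overlap: in 3 of 35 every Tppp3 AAV2 library lay above every control, as in 6.92% of all genes tested, and in 1 of 35 every Tppp3 AAV2 library lay below, as in 7.02% of all genes. The log2 fold change (Tppp3 AAV2 over Control AAV2) was above 0 in 27 of 35 members, where the share over all genes was 50.9%, and its median was 0.056, against 0.0030 over all genes. Of the 35 members, 23 (65.7%) lay within 0.1 of no change on that scale, as did 56.4% of all genes tested. The members are linked in function and were measured in the same libraries, so their signs are not independent.

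**Figure D1:**
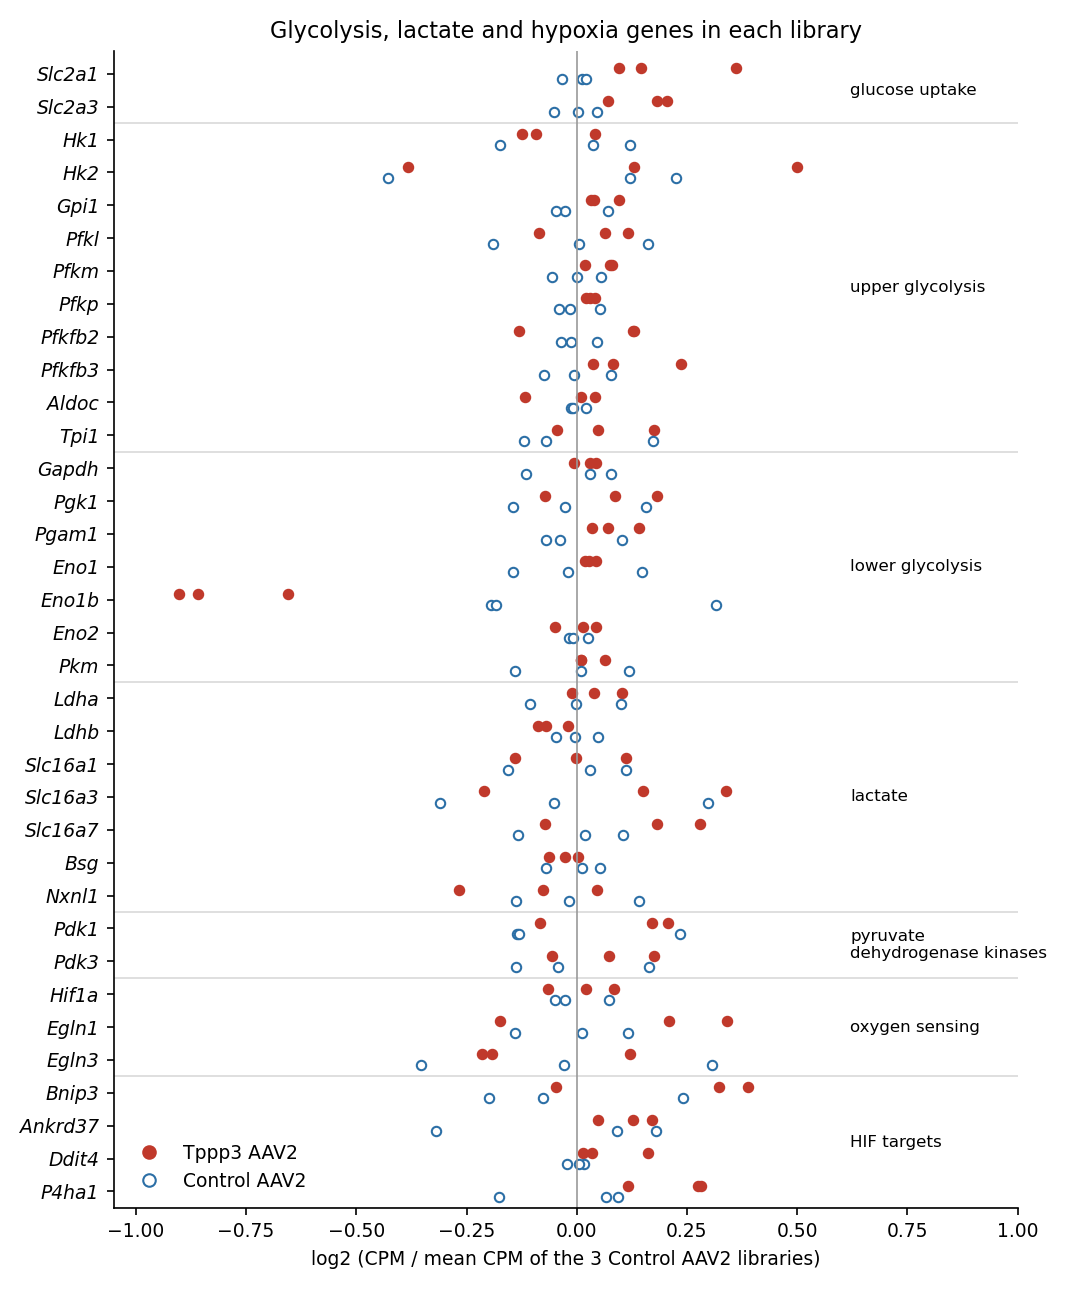
Each point is the level of 1 gene in 1 library, as log2 of its CPM over the mean CPM of the 3 Control AAV2 libraries, with Tppp3 AAV2 filled and Control AAV2 open. Slc2a1, Slc2a3 and P4ha1 have all Tppp3 AAV2 points to the right of the controls, Eno1b has all of them to the left, and Hk2 has the largest pooled within-group SD of the plotted genes.

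Both glucose transporters of the list had groups that did not overlap, and neither passed the test. Slc2a1, which encodes the main glucose carrier of the blood-retina barrier, pigment epithelium and Müller glia, was at 248, 257 and 299 CPM in the Tppp3 AAV2 libraries, against 235, 227 and 236 CPM in the controls. The groups did not overlap, but the Tppp3 AAV2 libraries spread further (268 ± 26.9 CPM) than the controls (233 ± 4.72 CPM; SD, n = 3 each). The log2 fold change of Slc2a1 was 0.21 ± 0.067 (SE; unadjusted p = 0.0107 and adjusted p = 0.648 in edgeR). Without Tppp3 AAV2 replicate 3, the library of the highest value, the log2 fold change was 0.12. Slc2a3, the carrier typical of neurons, was at 104, 102 and 94.8 CPM in the Tppp3 AAV2 libraries, against 93.3, 87.2 and 90.5 CPM in the controls. Here Tppp3 AAV2 replicate 3 was the lowest of its group, and lay close to Control AAV2 replicate 1. The log2 fold change of Slc2a3 was 0.15 ± 0.056 (SE; edgeR unadjusted p = 0.0186, adjusted p = 0.648).

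Markers of cells known to carry Slc2a1 were set beside these values, and none of them passed the test. The 5 Müller glia markers all had positive log2 fold changes, with a median of 0.15, and summed to 2911 to 3614 CPM in the Tppp3 AAV2 libraries and 2520 to 3283 CPM in the controls. The 6 tested pigment epithelium markers were also all positive, with a median of 1.10. The 5 endothelial markers were mixed, with 2 positive and a median of -0.27. They summed to 221 to 373 CPM in the Tppp3 AAV2 libraries and 240.4 to 312 CPM in the controls. Photoreceptor markers were mostly negative, with 0 of 5 rod markers positive (median -0.058) and 1 of 5 cone markers (median -0.099). With the level of the pigment epithelium markers as a covariate, the log2 fold change of Slc2a1 was 0.18 and that of Slc2a3 0.14. In that fit neither had an unadjusted p under 0.05 in edgeR (0.0512 for Slc2a1 and 0.0669 for Slc2a3). The part of Müller glia, endothelium and photoreceptors in these values was not tested.

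The enzymes of the upper steps of glycolysis showed no difference beyond their spread. Hk1, the hexokinase found in most neurons, was at 1047, 1174 and 1071 CPM in the Tppp3 AAV2 libraries, against 1012, 1240.5 and 1171 CPM in the controls, with the groups overlapping (log2 fold change -0.057 ± 0.078, SE). Gpi1, the gene of the isomerase that follows hexokinase, was at 842, 880.0 and 845 CPM in the Tppp3 AAV2 libraries, against 808, 797 and 865 CPM (log2 fold change 0.056 ± 0.054, SE). The phosphofructokinase genes, whose products make the committed step, overlapped: Pfkl, Pfkm and Pfkp had log2 fold changes of 0.035, 0.059 and 0.031, with adjusted p of 0.960, 0.835 and 0.925 in edgeR. Pfkm was at 185, 186 and 178 CPM with Tppp3 AAV2 and 183, 169 and 176 CPM in the controls, and the groups overlapped. Pfkp, which had the smallest pooled within-group SD of the tested members, was at 479 to 485 CPM with Tppp3 AAV2 and 459 to 489.8 CPM in the controls. Aldoc, a brain and glial aldolase, had a log2 fold change of -0.020 ± 0.054 (SE), and Tpi1, the triose phosphate isomerase, one of 0.062 ± 0.084 (SE).

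Hk2, the hexokinase that photoreceptors are known to rely on, was the least even member. It was at 478, 682 and 880.3 CPM in Tppp3 AAV2 replicates 1, 2 and 3, and at 463, 728 and 677 CPM in Control AAV2 replicates 1, 2 and 3. The highest library held 1.84 times the lowest within the Tppp3 AAV2 group and 1.57 times within the controls, so the group difference (log2 fold change 0.13 ± 0.31, SE; edgeR adjusted p = 0.960) was smaller than either. The pooled SD within groups of log2 CPM was 0.40 for Hk2, against a median of 0.11 over the tested members and 0.12 over all genes tested. The ratio of Hk2 to Hk1 counts, which does not depend on scaling, was 0.456, 0.581 and 0.822 in the Tppp3 AAV2 libraries and 0.458, 0.587 and 0.578 in the controls.

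Pfkfb2 and Pfkfb3 encode enzymes that make and break down the isomer of fructose bisphosphate that acts as a signal and speeds phosphofructokinase. Pfkfb3, a known target of the hypoxia-inducible factor, was at 57.6, 51.8 and 50.2 CPM in the Tppp3 AAV2 libraries, against 46.4, 48.7 and 51.6 CPM in the controls. The groups overlapped through replicate 3 of each (log2 fold change 0.12 ± 0.072, SE; edgeR adjusted p = 0.767), and without Tppp3 AAV2 replicate 1 the log2 fold change was 0.056. Pfkfb2 was at 452, 378 and 452 CPM in the Tppp3 AAV2 libraries and 410.0, 427 and 404 CPM in the controls, a log2 fold change of 0.047 ± 0.070 (SE).

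The lower steps of glycolysis, from Gapdh to Pkm, did not differ beyond its spread, with Eno1b the one gene whose groups were apart. Pkm, the pyruvate kinase of retina, was at 3105, 2990.2 and 2987 CPM in the Tppp3 AAV2 libraries, against 3225, 2695 and 2988 CPM in the controls (log2 fold change 0.028 ± 0.072, SE). Eno1, the enolase of most tissues, was at 2265, 2241 and 2225 CPM in the Tppp3 AAV2 libraries, against 2168, 1987 and 2436 CPM in the controls (log2 fold change 0.030 ± 0.074, SE). In both genes the 3 controls spread wider than the 3 Tppp3 AAV2 libraries and enclosed them. Pgam1, a phosphoglycerate mutase, was at 714, 697 and 750.3 CPM in the Tppp3 AAV2 libraries, against 662, 649 and 730.2 CPM, with an overlap (log2 fold change 0.083 ± 0.059, SE; edgeR adjusted p = 0.802). Gapdh, often used to scale other genes, was at 1339, 1293 and 1325 CPM in the Tppp3 AAV2 libraries, against 1326, 1198 and 1370.4 CPM in the controls. Gapdh, Pgk1 and the neuronal enolase Eno2 had log2 fold changes of 0.023, 0.069 and 0.0032.

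Eno1b had the largest fold change and the smallest p of the tested members. It is annotated as a retrogene, a copy of Eno1 made from its mRNA, and was at 9.81, 9.52 and 11.3 CPM in the Tppp3 AAV2 libraries, against 15.6, 15.7 and 22.1 CPM in the controls. All 3 Tppp3 AAV2 libraries lay below all 3 controls, at 10.2 ± 0.957 CPM against 17.8 ± 3.77 CPM (SD, n = 3 each), a fitted ratio of 0.575. The log2 fold change was -0.80 ± 0.15 (SE), with an unadjusted p of 2.4e-04, rank 10 of 14750 genes, and an adjusted p of 0.352 in edgeR. DESeq2's Wald test called it, at an adjusted p of 0.0120, as it did 14 of 14748 genes, or 0.0949%. Over all alternatives the log2 fold change of Eno1b stayed between -0.88 and -0.61, and its adjusted p between 0.0120 and 0.894.

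The raw counts of Eno1b were 193, 211 and 238 in the Tppp3 AAV2 libraries and 176, 255 and 245 in the shallower controls. As a ratio to Eno1 counts, chosen after the values were seen, Eno1b stood at 0.433%, 0.425% and 0.508% in the Tppp3 AAV2 libraries and at 0.718%, 0.789% and 0.909% in the controls, so the groups did not overlap on this scale either. Eno1b counts are uncertain because the copy is nearly identical to its parent. The annotated transcripts matched at 1643 of 1652 aligned bases (99.5%), and 50.4% of all windows of 150 bases in the Eno1b transcript, the length of 1 read, also occurred in an Eno1 transcript. How the authors' counting shared reads between such copies is not given in the sources used here. With all counts thinned to the depth of the shallowest library, the log2 fold change of Eno1b was -0.78.

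**Figure D2:**
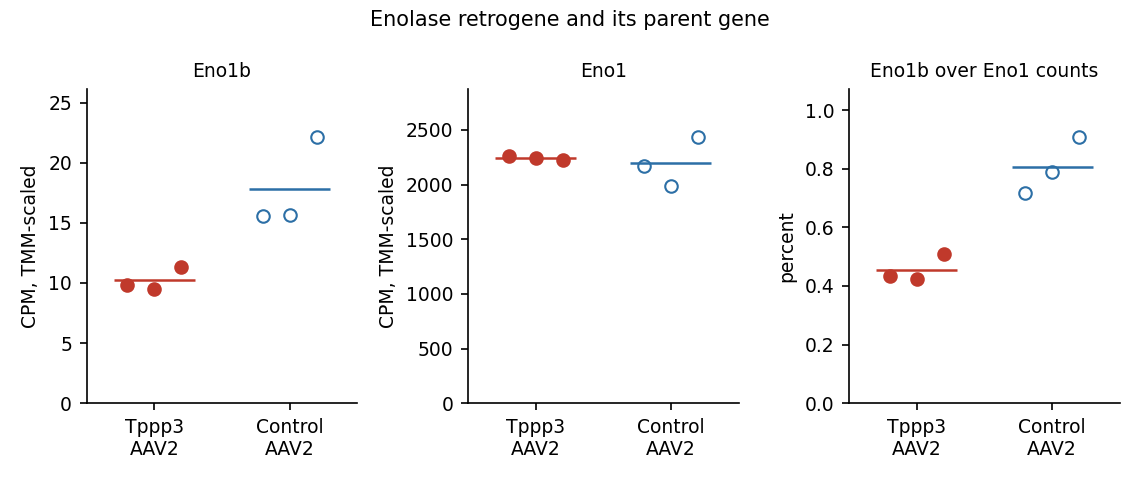
Eno1b and Eno1 in CPM and the ratio of their counts in percent, with 1 point per library and a line at the group mean. Eno1b lies at 9.52 to 11.3 CPM in the Tppp3 AAV2 libraries, below all controls, while the Eno1 values of the Tppp3 AAV2 libraries fall inside the range of the controls.

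Per kilobase of annotated exon, Pkm, Gapdh and Eno1, of the lower steps, had the highest levels of the members with a row, which leaves out Aldoa. Pkm stood at 1165 CPM per kilobase in the Tppp3 AAV2 libraries and 1142 in the controls, Gapdh at 882 and 868, Eno1 at 881 and 863, and Ldha at 511 and 496. On the same length-scaled measure of level, Hk1 stood at 226 CPM per kilobase in the Tppp3 AAV2 libraries and 235 in the controls, Hk2 at 121 and 111, and Slc2a1 at 82.3 and 71.4. Gapdh and Eno1 did not differ from each other beyond their spread in either group.

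Lactate genes did not differ beyond their spread. Ldha, the dehydrogenase subunit that favours lactate formation, was at 965, 933 and 1009.6 CPM in the Tppp3 AAV2 libraries, against 873, 938 and 1008 CPM in the controls (log2 fold change 0.045 ± 0.063, SE). Ldhb, the subunit that favours the reverse reaction, had a log2 fold change of -0.058 ± 0.050 (SE; edgeR adjusted p = 0.841). The ratio of Ldha to Ldhb counts was 9.27, 8.65 and 9.81 in the Tppp3 AAV2 libraries and 7.73, 8.86 and 9.25 in the controls, overlapping through Control AAV2 replicates 2 and 3. Bsg, which encodes basigin, the partner that carries lactate transporters to the cell surface, was at 570.3, 545 and 558 CPM in the Tppp3 AAV2 libraries, against 591, 543 and 574 CPM in the controls. Nxnl1, the gene of rod-derived cone viability factor, which binds basigin, had a log2 fold change of -0.093 ± 0.094 (SE).

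Of the monocarboxylate transporters, Slc16a1, of photoreceptors and glia, was at 212, 178 and 196 CPM in the Tppp3 AAV2 libraries, against 212, 200.2 and 176 CPM (log2 fold change -0.0074 ± 0.081, SE). Slc16a7, a neuronal form, was at 18.7, 14.7 and 17.5 CPM in the Tppp3 AAV2 libraries, against 16.6, 14.1 and 15.6 CPM (log2 fold change 0.14 ± 0.12, SE; edgeR adjusted p = 0.838), and with the pigment epithelium markers as a covariate the log2 fold change of Slc16a7 was 0.0049. Slc16a3, a form that the hypoxia-inducible factor is known to raise, varied within both groups, at 56.0, 71.9 and 81.9 CPM in the Tppp3 AAV2 libraries and 52.2, 62.5 and 79.6 CPM in the controls. The group difference of Slc16a3 (log2 fold change 0.11 ± 0.22, SE) was smaller than the spread among its replicates.

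The kinases that shut pyruvate out of mitochondria by blocking pyruvate dehydrogenase overlapped between groups. Pdk1 was at 55.7, 68.2 and 66.5 CPM in the Tppp3 AAV2 libraries, against 53.7, 54.0 and 69.5 CPM in the controls (log2 fold change 0.11 ± 0.12, SE; edgeR adjusted p = 0.887). Pdk3 was at 26.3, 28.2 and 24.1 CPM in the Tppp3 AAV2 libraries, against 24.3, 22.7 and 28.0 CPM (log2 fold change 0.070 ± 0.099, SE). In both genes Control AAV2 replicate 3 was the highest control and exceeded at least 1 Tppp3 AAV2 library.

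Among the genes of oxygen sensing, Hif1a overlapped between groups, at 702, 779 and 746 CPM in the Tppp3 AAV2 libraries, against 709.6, 721 and 773 CPM in the controls (log2 fold change 0.015 ± 0.058, SE; edgeR adjusted p = 0.976). Egln1, the main oxygen sensor of the pathway, was at 82.2, 107 and 117 CPM in the Tppp3 AAV2 libraries, against 84.2, 93.5 and 101 CPM (log2 fold change 0.14 ± 0.14, SE; edgeR adjusted p = 0.880). Its lowest and highest values were both in the Tppp3 AAV2 group, and the log2 fold change of Egln1 was 0.27 without Tppp3 AAV2 replicate 1, 0.029 without Tppp3 AAV2 replicate 3 and 0.074 without Control AAV2 replicate 1. Egln3, a hydroxylase that the factor itself induces strongly in many cells, was low, at 3.71, 3.65 and 4.61 CPM in the Tppp3 AAV2 libraries, against 4.15, 3.32 and 5.24 CPM in the controls (log2 fold change -0.077 ± 0.23, SE).

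The targets of the factor outside glycolysis had mostly positive log2 fold changes, and none passed the test. P4ha1, a collagen prolyl hydroxylase subunit, was at 82.6, 74.0 and 82.9 CPM in the Tppp3 AAV2 libraries, against 60.4, 71.5 and 72.8 CPM in the controls. The groups did not overlap, and the gap between Tppp3 AAV2 replicate 2 and Control AAV2 replicate 3 was small. The log2 fold change of P4ha1 was 0.23 ± 0.078 (SE), with an unadjusted p of 0.0154 and an adjusted p of 0.648 in edgeR, and it was 0.14 without Control AAV2 replicate 1. Bnip3, a mitophagy receptor, was at 109, 140.3 and 147 CPM in the Tppp3 AAV2 libraries, against 97.7, 106 and 132 CPM in the controls, with an overlap (log2 fold change 0.24 ± 0.17, SE; edgeR adjusted p = 0.812). For Bnip3 the log2 fold change was 0.14 without Control AAV2 replicate 1, 0.15 without Tppp3 AAV2 replicate 3 and 0.37 without Control AAV2 replicate 3. Ddit4, an inhibitor of mTOR signalling that many stresses induce, was at 212, 191 and 194 CPM in the Tppp3 AAV2 libraries, against 186, 192 and 190.2 CPM (log2 fold change 0.071 ± 0.052, SE). Tppp3 AAV2 replicate 1 stood above the other 5 libraries for Ddit4, which were close together, and without it the log2 fold change was 0.019. Ankrd37, a target whose function is less well known, was at 14.1, 14.9 and 15.4 CPM in the Tppp3 AAV2 libraries, against 10.96, 15.5 and 14.6 CPM, and the log2 fold change of 0.11 became -0.025 without Control AAV2 replicate 1.

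Car9 and Adm, HIF targets that many hypoxic cells induce strongly, were close to absent and did not pass the filter on low counts. Car9, a carbonic anhydrase, had 2, 3 and 4 counts in the Tppp3 AAV2 libraries and 1, 2 and 1 counts in the controls. Adm, the gene of the vasodilator adrenomedullin, had 12, 10 and 8 counts in the Tppp3 AAV2 libraries and 9, 7 and 6 counts in the shallower controls, or 0.610, 0.451 and 0.380 CPM against 0.796, 0.430 and 0.542 CPM. At these counts a moderate difference of either gene was not detectable.

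The enzymes from hexokinase to lactate dehydrogenase (18 listed, Aldoa unmatched) were then compared with 8 HIF targets outside the pathway. Of 17 tested enzymes, 13 had a positive log2 fold change and the median was 0.031, with 15 within 0.1 of no change. Of 6 tested HIF targets, namely P4ha1, Bnip3, Ankrd37, Ddit4, Pdk1 and Egln3, 5 were positive and the median was 0.11, with 2 within 0.1 of no change. Over all genes tested 50.9% were positive, the median was 0.0030 and 56.4% lay within 0.1. Without Control AAV2 replicate 1 the enzyme median was -0.0011, with 8 of 17 positive, and the HIF target median was 0.049, with 4 of 6 positive. Without Control AAV2 replicate 3 these medians were 0.064 and 0.20, without Control AAV2 replicate 2 the enzyme median was 0.017, and without Tppp3 AAV2 replicate 3 it was 0.019. Once the pigment epithelium markers entered the fit, the HIF target median was 0.26.

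**Figure D3:**
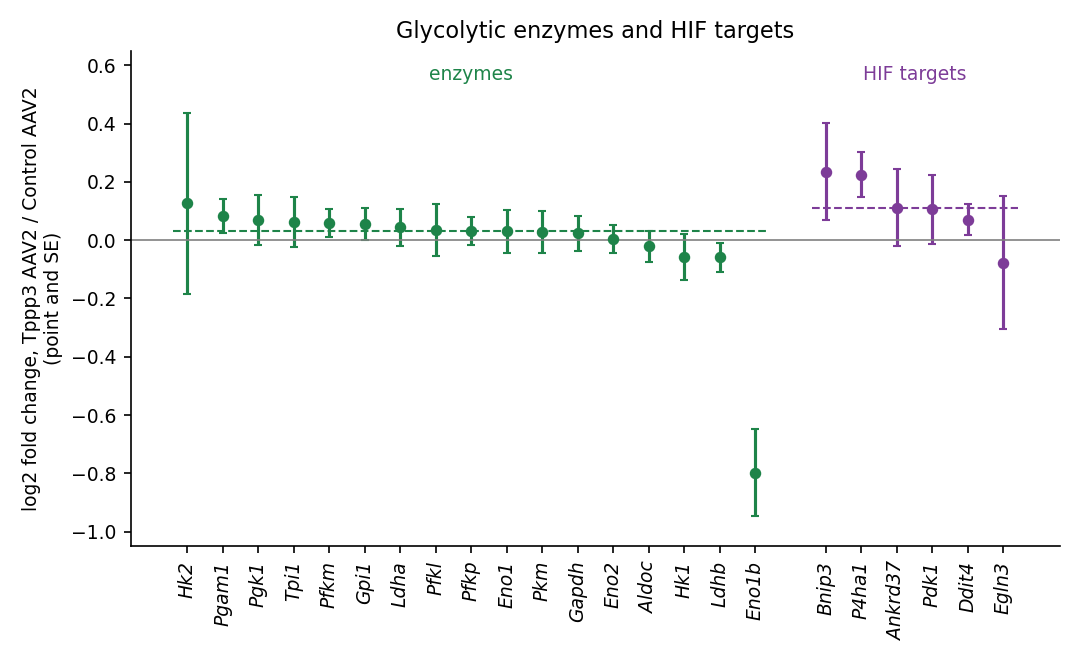
Log2 fold change of each tested enzyme and HIF target, Tppp3 AAV2 over Control AAV2, with its standard error, ordered by value within each list, and a dashed line at the list median. Apart from Eno1b at -0.80, the enzymes lie between -0.058 and 0.13, with the widest error at Hk2, and the HIF targets lie between -0.077 and 0.24.

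The mean level of each list was then set side by side in every library. The 17 enzymes averaged 8.99, 9.05 and 9.07 log2 CPM in Tppp3 AAV2 replicates 1, 2 and 3 and 8.98, 9.02 and 9.15 in Control AAV2 replicates 1, 2 and 3. The 6 HIF targets averaged 5.41, 5.47 and 5.57 log2 CPM in the Tppp3 AAV2 libraries and 5.23, 5.33 and 5.54 in the controls. Both lists overlapped between the groups and were highest among controls in replicate 3. The difference between them within a library, enzymes minus HIF targets, was 3.58, 3.58 and 3.50 in the Tppp3 AAV2 libraries and 3.75, 3.69 and 3.61 in the controls, so that it was smaller in every Tppp3 AAV2 library. The mean log2 fold change of the enzymes minus that of the HIF targets was -0.13. Without Eno1b, a choice made after its value was seen, it was -0.080, and the within-library difference was 3.94, 3.94 and 3.85 in the Tppp3 AAV2 libraries and 4.07, 4.01 and 3.90 in the controls, with the groups overlapping. No test was made of this difference, since the genes were chosen with results of these data known.

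**Figure D4:**
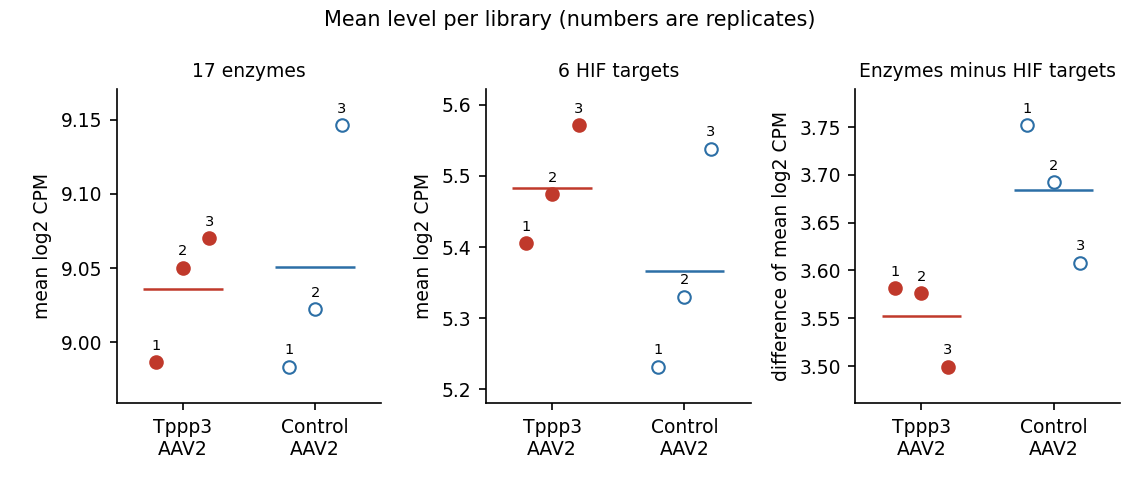
Mean log2 CPM of the 17 tested enzymes, of the 6 tested HIF targets and their difference, with 1 numbered point per replicate and a line at the group mean; axes do not start at 0. The groups overlap in both lists, and the difference is 3.50 to 3.58 in the Tppp3 AAV2 libraries and 3.61 to 3.75 in the controls.

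The sequence that the factor binds is short, so the promoters of the members were searched for its core, ACGTG or GCGTG on either strand; matches on both strands at a palindrome overlap. Promoter sequences from RefSeq (GRCm38.p6, another build than the count table) were found for 34 of the 38 genes, and the 250 bases before the start site were read. The core occurred in 40 of 49 such windows of the members (81.6%), in 21 of 28 of the enzymes and in 8 of 9 of the HIF targets, against 38.6% of all 32851 windows in the table. The windows were not matched for base composition, and a match is not a binding site. The 4 windows shown here are those of Slc2a1 and P4ha1, which had separate groups, of Ankrd37, a HIF target that overlapped, and of the enzyme gene Pgk1, with every match to the core in capitals.
Slc2a1 (chr4:119108495-119108744, plus strand): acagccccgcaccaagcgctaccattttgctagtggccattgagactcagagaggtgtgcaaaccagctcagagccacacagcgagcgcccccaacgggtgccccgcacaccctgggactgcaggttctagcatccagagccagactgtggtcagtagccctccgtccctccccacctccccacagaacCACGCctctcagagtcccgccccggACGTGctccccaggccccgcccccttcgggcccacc
P4ha1 (chr10:59323046-59323295, plus strand): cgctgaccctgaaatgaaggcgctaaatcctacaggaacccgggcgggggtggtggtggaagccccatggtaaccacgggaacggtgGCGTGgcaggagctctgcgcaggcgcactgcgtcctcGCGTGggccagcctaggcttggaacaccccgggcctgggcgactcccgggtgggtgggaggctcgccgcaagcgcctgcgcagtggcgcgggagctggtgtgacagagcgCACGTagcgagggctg
Ankrd37 (chr8:45999851-46000100, minus strand): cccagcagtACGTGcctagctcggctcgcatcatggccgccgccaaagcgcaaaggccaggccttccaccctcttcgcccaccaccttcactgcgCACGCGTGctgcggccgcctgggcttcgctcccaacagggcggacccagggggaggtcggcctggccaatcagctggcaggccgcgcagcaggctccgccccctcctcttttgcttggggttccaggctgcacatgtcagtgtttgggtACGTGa
Pgk1 (chrX:106186850-106187099, plus strand): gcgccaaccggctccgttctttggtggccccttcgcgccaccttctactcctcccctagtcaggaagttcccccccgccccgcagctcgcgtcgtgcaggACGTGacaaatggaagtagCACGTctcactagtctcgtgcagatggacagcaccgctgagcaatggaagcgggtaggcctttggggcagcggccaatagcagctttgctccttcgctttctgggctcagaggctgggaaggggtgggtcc

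The Slc2a1, P4ha1, Ankrd37 and Pgk1 windows held 2, 3, 4 and 2 matches. Pgk1, a glycolytic kinase long used as an example of a hypoxia-induced gene, was at 614, 685 and 732 CPM in the Tppp3 AAV2 libraries and 584, 633 and 719 CPM in the controls, with overlapping groups. The promoters of Hk2, Slc16a3 and Egln1 held 2 matches each, and the windows of Pdk1 held 1 and 0. That of Bnip3 held 5, including overlapping matches at 108 and 107 bases before the start. The windows of Gpi1, Tpi1, Eno2 and Nxnl1 held 0.

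Several members varied more between replicates than between groups, and some of them were lowest in the same libraries. This set, Hk2, Slc16a3, Bnip3, Egln1 and Pdk1, was picked after the values were seen and is described without a test. Each of the 5 genes was lowest among the controls in replicate 1 and lowest among the Tppp3 AAV2 libraries in replicate 1. Among the controls, Slc16a3, Bnip3, Egln1 and Pdk1 were highest in replicate 3, and Hk2 in replicate 2. Among the Tppp3 AAV2 libraries, Hk2, Slc16a3, Bnip3 and Egln1 were highest in replicate 3, and Pdk1 in replicate 2. Pooled within-group SDs of log2 CPM were 0.29 for Slc16a3, 0.23 for Bnip3, 0.21 for Egln1 and 0.19 for Pdk1, above the median of 0.12 over all genes tested. For Pdk1, Control AAV2 replicates 1 and 2 were close, at 53.7 and 54.0 CPM. Pgk1, with a pooled SD of 0.14, had the same lowest library in each group. So did Ankrd37, with a pooled SD of 0.19, and Hk1, Pfkl, Tpi1, Hif1a and the barely detected Car9. The order is thus not particular to the genes picked, and its share over all genes was not computed. Not all uneven members had this order. Egln3, with a pooled SD of 0.26, was lowest in replicate 2 of both groups. Eno1b, with a pooled SD of 0.22, was lowest in Tppp3 AAV2 replicate 2 and in Control AAV2 replicate 1. Pigment epithelium markers were high in replicate 1 of both groups and in Tppp3 AAV2 replicate 3, so that they were high both where these genes were lowest and where most of them were highest. Microglia markers summed to 68.6, 112 and 57.7 CPM in Tppp3 AAV2 replicates 1, 2 and 3 and to 66.9, 103 and 97.6 CPM in Control AAV2 replicates 1, 2 and 3. Bipolar cell markers summed to 1375, 1476 and 1637 CPM and to 1291, 1490 and 1479 CPM in the same order. They were thus lowest in replicate 1 of both groups, while ganglion cell markers were highest there. These 2 lists were set beside the genes after the values were seen. With the pigment epithelium markers as a covariate, the log2 fold change was 0.40 for Hk2, 0.32 for Slc16a3, 0.39 for Bnip3, 0.25 for Egln1 and 0.23 for Pdk1, against 0.13, 0.11, 0.24, 0.14 and 0.11 without it. None of these passed the test, and the part of microglia, bipolar cells and ganglion cells was not tested.

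**Figure D5:**
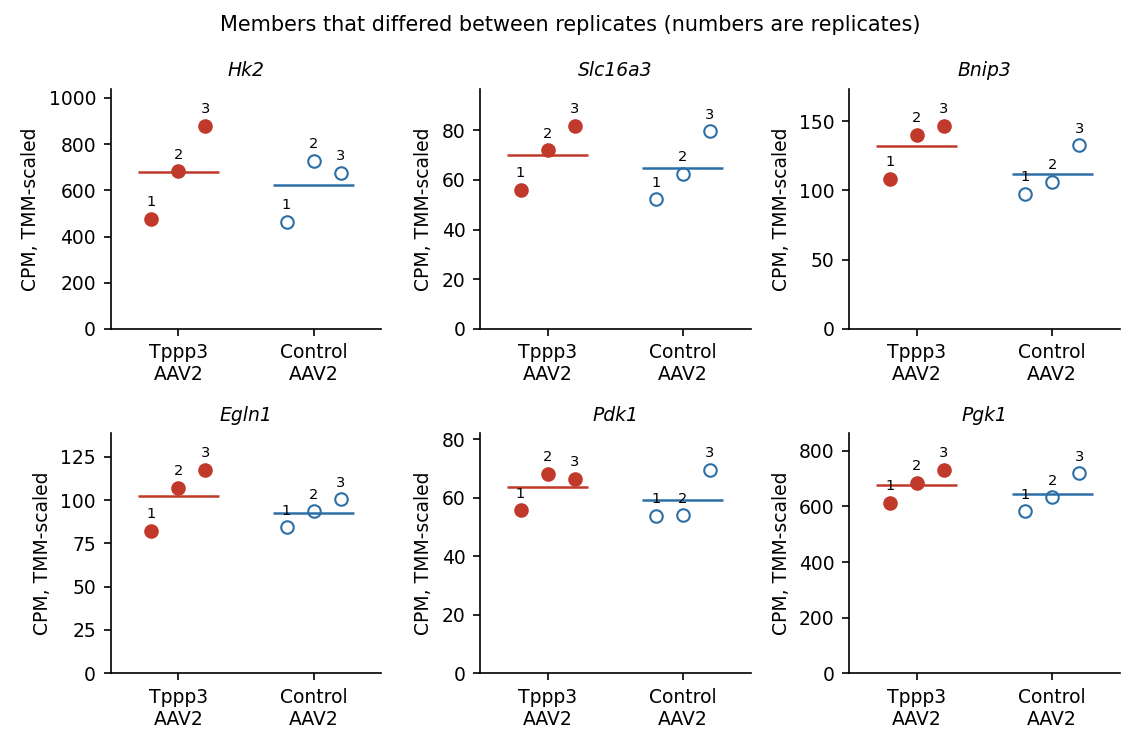
CPM of Hk2, Slc16a3, Bnip3, Egln1, Pdk1 and Pgk1 in each library, with replicate numbers and a line at the group mean; axes start at 0. In all 6 genes, which were picked after the values were seen, replicate 1 is the lowest library of its group. Hk2 ranges from 478 to 880.3 CPM in the Tppp3 AAV2 group and from 463 to 728 CPM in the controls.

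A further 60 genes of glycolysis, pyruvate use and hypoxia were listed as other parts of the same pathways, and 58 of them were tested. Of these 58, 0 passed the threshold over all genes in either direction, while 5 were higher and 1 was lower at an unadjusted p under 0.05 in edgeR, where the shares over all genes were 3.67% and 3.55%. The log2 fold change, positive in 50.9% of all genes, was positive in 19 of 28 tested glycolysis and pyruvate genes, with a median of 0.053, and in 22 of 30 hypoxia genes, with a median of 0.078. Vegfa, the angiogenic growth factor and a classic HIF target, was at 162, 176 and 175 CPM in the Tppp3 AAV2 libraries, against 161, 146 and 142 CPM in the controls. The groups did not overlap, but replicate 1 of each lay close together (log2 fold change 0.19 ± 0.059, SE; edgeR adjusted p = 0.639). P4ha2, a second collagen prolyl hydroxylase subunit gene, was at 17.4, 17.2 and 17.6 CPM in the Tppp3 AAV2 libraries, against 14.2, 12.8 and 14.9 CPM (log2 fold change 0.32 ± 0.10, SE; edgeR adjusted p = 0.639). As for P4ha1, all Tppp3 AAV2 libraries lay above all controls, but P4ha2 was named for its small p, which favours separate groups. Of the 58 genes, 6 had every Tppp3 AAV2 library above every control and 2 below. The shares over all genes were 6.92% and 7.02%. Slc2a4, the insulin-sensitive glucose carrier, was near the limit of detection at 0.660, 1.44 and 1.04 CPM in the Tppp3 AAV2 libraries, against 0.354, 0.246 and 0.633 CPM (log2 fold change 1.40 ± 0.51, SE; edgeR adjusted p = 0.648). Arnt2, a dimerization partner of the factor in neurons, was at 31.6, 29.6 and 29.4 CPM in the Tppp3 AAV2 libraries, against 33.7, 35.2 and 33.3 CPM in the controls (log2 fold change -0.17 ± 0.072, SE; edgeR adjusted p = 0.673).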

How the data were processed

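Poly(A)-selected RNA of whole retina was sequenced as paired reads of 150 bases, per the labels' protocols, and the kit named keeps no strand information. The deposited values are raw counts per gene symbol, per the file headers, and were not normalized. The submitters' processing notes name the genome build GRCm39 (mm39); the aligner, counter, annotation and strand setting is each not given in the sources used here.

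By the sample labels there are 4 controls and 3 Tppp3 AAV2 samples, while the treatment protocol gives the reverse. Columns were used where their name matched a sample title, which gave 3 libraries per group; the fourth control was not analysed here, and 1 column, named as a further Tppp3 library but matching no sample title, was not used. Each sample title holds a different number, that of Tppp3 AAV2 replicate 3 far from the others, and what the numbers stand for is not given. Nothing says that the libraries came from separate animals, so p-values measure the spread between these samples, which may be technical. Counts of replicates differed beyond sampling noise (chi-square of 4.10 to 13.9 per gene).

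Genes were filtered by edgeR's expression filter, scaled by TMM and tested on all rows with edgeR's quasi-likelihood F test (robust, two-sided, Benjamini-Hochberg, threshold 0.05). CPM values use TMM-scaled library sizes, and log2 CPM adds a prior count of 2. Standard errors come from the fold change and F. With 3 libraries against 3, an exact permutation test cannot go below p = 0.1. Exon lengths and transcripts were those of GENCODE for GRCm38. The alternatives were the Wald test of DESeq2, its size factors within edgeR, voom with quality weights (limma), other filters, a block for the replicate number, equal depth, a pigment epithelium covariate, and fits without each library in turn. Same-numbered libraries did not deviate together over all genes (correlations of -0.029, 0.051 and -0.26), so the main fit did not pair them. With 3 libraries per group these correlations cannot exclude a pairing. Named were the members of each role with the highest level, the 10 tested members of smallest p, untested members, and the 4 other pathway genes of smallest p; the values of other members, such as Hk2 and Slc16a3, were added after they were seen. The members and lists were chosen with earlier results of these data known. The versions were edgeR 4.0.16, DESeq2 1.42.0 and limma 3.58.1 under R 4.3.3, with Python 3.11.15 and matplotlib 3.10.9.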

Additional observations from a re-analysis of the deposited data

How the results depend on the processing

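The count of genes called over all genes tested was 2 in the reported fit. It was 14 with DESeq2's Wald test, 1 with limma's voom, 6 with no low count filter, 1 with the replicate number as a block, and 0 to 3 with single libraries left out. The count of members called was 0, and 1 (Eno1b, log2 fold change -0.80, adjusted p = 0.0120) with DESeq2's Wald test, which also called Tppp3 (0.94). The HIF target median was 0.26 with the pigment epithelium covariate, and the enzyme median changed sign without Control AAV2 replicate 1. Of the 35 tested members, 19 kept the sign of the log2 fold change under all 14 alternatives, Eno1b, Slc2a1, Slc2a3, P4ha1 and Bnip3 among them. The other 16, none of them called, changed sign in 34 of their values, and the cause was not tested. For Eno1b, Slc2a1, Slc2a3 and P4ha1, whose groups did not overlap, leaving out 1 library could hardly change the sign. By the test of each of the 14 alternatives, the unadjusted p was under 0.05 in 14 for Eno1b and 12 for Slc2a1. It was so in 10 for Slc2a3 and 11 for P4ha1. With single libraries left out, the log2 fold change ranged from -0.14 to 0.0081 for Hk1, -0.11 to 0.32 for Hk2, -0.055 to 0.12 for Pfkl, -5.5e-05 to 0.13 for Pfkfb2, -0.053 to 0.025 for Aldoc, -0.031 to 0.064 for Gapdh, -0.0011 to 0.15 for Pgk1, -0.037 to 0.11 for Eno1, -0.022 to 0.029 for Eno2, -0.037 to 0.089 for Pkm, -0.0087 to 0.098 for Ldha, -0.078 to 0.055 for Slc16a1, -0.022 to 0.28 for Slc16a3, -0.021 to 0.053 for Hif1a, -0.23 to 0.10 for Egln3 and -0.025 to 0.22 for Ankrd37. With the pigment epithelium covariate it was 0.077 for Hk1, -0.0050 for Pfkfb2, 0.0072 for Aldoc, -0.0022 for Gapdh, -0.0034 for Eno2 and -0.046 for Pkm. It was 0.010 for Slc16a1 and 0.0068 for Egln3 with voom, and 0.024 for Slc16a1 at equal depth. The replicate block changed no call among the members, and gave Eno1b a log2 fold change of -0.79. With the block 5 members had an unadjusted p under 0.05 in edgeR, against 4 in the reported fit. The share over all genes with the block was not computed, so this count has no background. Bnip3 was the one added, its unadjusted p in edgeR moving from 0.216 to 0.00393, with an adjusted p of 0.675. Bnip3 was among the genes picked above as lowest in replicate 1 of both groups, an order that a block takes out of the spread. Slc2a4 was not tested at a mean of at least 1 CPM or at equal depth. Depth limits Car9, Adm, Slc2a4 and Egln3, which rest on few counts. Intervals and tests cover these libraries only, and Aldoa was not matched.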

Other observations

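Aldoa had no row under its plain symbol, but the table holds rows with that symbol and a number added, which the rule for the members does not cover. The first such row, Aldoa_1, held 1846, 1877 and 1854 CPM in the Tppp3 AAV2 libraries and 1830.5, 1679.8 and 1950.0 CPM in the controls, with a log2 fold change of 0.031 ± 0.064 (SE). The second, Aldoa_2, held 25, 40 and 29 counts in the Tppp3 AAV2 libraries and 15, 32 and 12 counts in the controls. Which annotated gene each row stands for is not given in the sources used here. The ratio of Aldoc to Aldoa_1 counts was 0.238, 0.240 and 0.217 in the Tppp3 AAV2 libraries and 0.236, 0.259 and 0.227 in the controls.

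Other pairs of related genes had count ratios that overlapped between the groups. Eno2 over Eno1, the neuronal against the general enolase, averaged 0.227 ± 0.0067 in the Tppp3 AAV2 libraries and 0.233 ± 0.027 in the controls (SD, n = 3 each). Pfkp over Pfkl averaged 0.943 ± 0.068 in the Tppp3 AAV2 libraries and 0.950 ± 0.10 in the controls. Pdk3 over Pdk1 averaged 0.416 ± 0.055 in the Tppp3 AAV2 libraries and 0.426 ± 0.025 in the controls. Slc16a3 over Slc16a1 averaged 0.363 ± 0.085 in the Tppp3 AAV2 libraries and 0.337 ± 0.105 in the controls, the widest spread of these pairs in both groups. All 37 members with a row together summed to 17379, 17708 and 18027 CPM in the Tppp3 AAV2 libraries and to 16952, 16743 and 18156 CPM in the controls.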
